A study of Mus musculus with 22 samples.

Results

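Ccn3 was followed in the brains of wild-type (WT) and circTulp4-deficient (CD) mice together with 3 genes used as markers of the ventral hippocampus (Dcn, Grp and Trhr) and 3 used as markers of the dorsal hippocampus (Wfs1, Spink8 and Lct). These 7 genes were listed by name, out of 23037 genes matched in the table. The list was drawn up after Ccn3 had been seen to be higher in CD than in WT hippocampi, so the members were chosen by the hippocampal levels of the genotypes. These are given here as a description, with no test. The comparisons between regions and the genotype comparisons in cortex and cerebellum were tested.

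The RNA came from 8 mice, 4 WT and 4 CD, in 22 libraries of 3′ RNA-seq (CelSeq2), which counts the ends of polyadenylated transcripts. Hippocampus was measured in 3 WT mice (m162, m240 and m244) and 4 CD mice (m118, m138, m190 and m242), cortex in 4 WT mice (those and m164) and the same 4 CD mice, and cerebellum in 4 WT mice and 3 CD mice (m118, m190 and m242). In CD mice the AG of the splice acceptor that circTulp4 uses was changed to TC by CRISPR-Cas9, and a cryptic acceptor leaves some circTulp4. The line goes back to a single mosaic founder male and was kept on C57BL/6, the background of all groups. The labels name no treatment, and the age and sex of these mice are not given in the sources used here.

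The hippocampus is a curved structure whose dorsal and ventral ends differ in connections and in gene expression, and which is divided into the fields CA1, CA2 and CA3, the dentate gyrus and the subiculum. Several genes are known to be expressed toward 1 end of this axis, so the balance of ventral and dorsal markers in a bulk sample follows how much of each end was taken as well as how strongly each gene was expressed. Ccn3, formerly Nov, encodes a secreted matricellular protein of the CCN family, which binds integrins and other matrix components. In bulk tissue, fewer cells of a type and less RNA per cell cannot be told apart.

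Libraries held 2760846 to 8858937 counts on the transcripts that represent genes, and 4025499 to 8858937 in the hippocampus. Levels are cpm, the count of a gene per 1000000 counts of the library, scaled by the trimmed mean of M values (TMM) over the 22 libraries. Tissue labels were checked with edgeR's quasi-likelihood test (false discovery rate [FDR] below 0.01 and fold change above 2). Dentate granule genes were higher in hippocampus than in cortex for 4 of 4 tested, and cortical neuron genes were higher in cortex for 4 of 4. Cerebellar neuron genes were higher in cerebellum than in hippocampus for 4 of 4. Of all genes, 8.41% were called between hippocampus and cortex and 22.8% between hippocampus and cerebellum. Other hippocampal fields were less uniform against cortex. Higher in hippocampus were 3 of 3 CA2 genes, 1 of 3 CA1 genes and 0 of 2 CA3 genes, with 1 CA3 gene higher in cortex. The edited gene was checked through Tulp4. Counts of the Tulp4 transcript whose opening exon lies in circTulp4 exceeded those of the transcript without it by 2.71 to 3.69 cpm in WT hippocampi and by 0.42 to 0.57 cpm in CD mice m138, m190 and m242. The hippocampus library labelled CD, mouse m118, had 3.98 cpm, which goes against its label, whereas the cortex and cerebellum of the same mouse had 0.90 and 1.55 cpm. In hippocampus these values rest on 3 to 24 counts per library. Elsewhere the check parted the genotypes narrowly. WT cortex m244 had 1.45 cpm against 1.29 cpm in CD cortex m190, and WT cerebellum m244 had 3.12 cpm against 2.61 cpm in CD cerebellum m242. These 3′ counts do not measure circTulp4 itself. The hippocampus of WT mouse m244 stood apart in another way, with summed choroid plexus genes at 8242 cpm, against 127.5 to 4155 cpm in the other 6 hippocampi, and CA1 genes (Fibcd1, Mpped1, Pou3f1 and Gpr161) at 158.9 cpm, against 294.2 to 387.3 cpm. The fitted differences that draw on the hippocampus are therefore also given without these libraries of mice m118 and m244, for the genotypes with each gene and for the regions where a call changed.

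On GRCm38, Ccn3 lies on the plus strand of chromosome 15 from 54745910 to 54753762. Of the ventral markers, Dcn is on chromosome 10 (97479500 to 97518163, plus strand) and Trhr on chromosome 15 (44195924 to 44235912, plus strand). Of the dorsal markers, Wfs1 is on chromosome 5 (36966104 to 36988982, minus strand), Spink8 on chromosome 9 (109812203 to 109826628, plus strand) and Lct on chromosome 1 (128284756 to 128328318, minus strand). Grp lies on another chromosome, given with its values, so that only Ccn3 and Trhr share one. The RefSeq promoter table (GRCm38.p6) holds 2 of the 7 members, Wfs1 and Lct. Their promoters, from 250 bases before to 50 bases after the transcription start, are shown because they are dorsal markers with different regional ranges, Wfs1 being expressed in all 3 regions and Lct almost entirely in hippocampus. Each is written 5′ to 3′ on the minus strand with CG dinucleotides in capitals, Wfs1 at chr5:36988933-36989232 and Lct at chr1:128328269-128328568.
Wfs1: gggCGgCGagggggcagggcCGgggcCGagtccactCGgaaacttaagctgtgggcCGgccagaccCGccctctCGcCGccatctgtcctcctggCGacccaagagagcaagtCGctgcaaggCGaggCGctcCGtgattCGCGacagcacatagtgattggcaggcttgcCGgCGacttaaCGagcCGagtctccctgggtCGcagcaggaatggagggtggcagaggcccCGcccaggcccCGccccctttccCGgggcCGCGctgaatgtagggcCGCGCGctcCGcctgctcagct
Lct: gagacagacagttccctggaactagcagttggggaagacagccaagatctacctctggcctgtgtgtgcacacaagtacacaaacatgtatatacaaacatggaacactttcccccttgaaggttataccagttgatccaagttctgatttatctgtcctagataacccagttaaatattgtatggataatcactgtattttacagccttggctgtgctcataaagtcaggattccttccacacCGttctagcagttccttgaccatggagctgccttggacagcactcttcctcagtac

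The Wfs1 promoter held 30 CG dinucleotides and had a GC content of 70.0%, and 11.7% of the 32851 promoters of the table held as many or more. The Lct promoter held 1 and had a GC content of 44.7%, and 5.4% of promoters held fewer, with a median of 7. On either strand, CCAAT was found in the Wfs1 window and not in the Lct window (37.4% of all promoters hold it). TATAAA was searched on the written strand only and was found in neither (8.3%). These are letters in a window and not sites shown to be used.

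Ccn3 was higher in every CD hippocampus than in every WT hippocampus. Its level was 11.6, 12.9 and 4.79 cpm in WT mice m162, m240 and m244, and 18.9, 24.7, 19.7 and 29.4 cpm in CD mice m118, m138, m190 and m242, from 28 to 214 counts per library. The lowest CD library, mouse m118, was above the highest WT library, mouse m240, and WT mouse m244 lay well below the other WT libraries. The means were 9.77 ± 4.37 cpm (SD, n = 3) in WT and 23.2 ± 4.89 cpm (SD, n = 4) in CD, a log2 fold change of 1.24 (SE, 0.28). Without mice m118 and m244 it was 1.0 (SE, 0.20). No gene passed the thresholds in this contrast (0% of the 9964 genes tested, with 420 at an unadjusted p below 0.05), and the groups did not overlap with CD higher for 2.68% of genes and with CD lower for 2.76%. Among the members, 3 of 7 did not overlap, all with CD higher, and nothing is read from this count because the contrast chose the list.

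The ventral markers split. Dcn encodes decorin, a secreted proteoglycan that is made by fibroblasts and, in the hippocampus, by ventral pyramidal cells. Its level was 10.7, 10.4 and 17.4 cpm in WT mice m162, m240 and m244 and 24.9, 43.1, 19.2 and 46.7 cpm in CD mice m118, m138, m190 and m242, a log2 fold change of 1.40 (SE, 0.31). The groups did not overlap, and CD mice m138 and m242 had about the same level, well above the other 5 hippocampi. Grp, on chromosome 18 from 65872751 to 65886599 on the plus strand, encodes gastrin-releasing peptide, a neuropeptide. It was measured at 25.8, 24.2 and 11.3 cpm in WT mice m162, m240 and m244 and at 28.4, 51.7, 29.2 and 52.7 cpm in CD mice m118, m138, m190 and m242, a log2 fold change of 0.99 (SE, 0.30). The groups did not overlap here either, although CD mice m118 and m190 were close to WT mice m162 and m240. The table lists 2 distinct Grp transcripts with nearly equal counts, and 1 of them was used. Trhr encodes a receptor for thyrotropin-releasing hormone and is known from ventral granule cells. It was low, at 2.59, 5.10 and 5.30 cpm in WT mice m162, m240 and m244 and at 3.02, 5.32, 2.49 and 6.35 cpm in CD mice m118, m138, m190 and m242, from 12 to 46 counts. The genotypes overlapped, with a log2 fold change of 0.01 (SE, 0.37). Without mice m118 and m244 the log2 fold changes were 1.79 for Dcn (SE, 0.33), 0.84 for Grp (SE, 0.23) and 0.26 for Trhr (SE, 0.43).

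The dorsal markers overlapped between genotypes. Wfs1 encodes wolframin, a membrane protein of the endoplasmic reticulum that marks dorsal CA1 pyramidal cells. It was at 33.6 ± 9.09 cpm (SD, n = 3) in WT and 34.0 ± 2.75 cpm (SD, n = 4) in CD hippocampi. The WT spread came from mouse m244, which had 23.1 cpm, against 39.2 and 38.3 cpm in mice m162 and m240. Spink8 encodes a Kazal-type serine peptidase inhibitor of CA1. It was at 20.9 ± 4.85 cpm (SD, n = 3) in WT and 27.6 ± 5.01 cpm (SD, n = 4) in CD, again lowest in mouse m244 (16.1 cpm) and highest in CD mouse m118 (34.0 cpm). Lct encodes lactase and is known from dorsal granule cells. It was at 21.5 ± 1.94 cpm (SD, n = 3) in WT and 18.4 ± 6.29 cpm (SD, n = 4) in CD. Here the CD mice parted, with 23.6 cpm in both m118 and m190, 15.4 cpm in m138 and 11.0 cpm in m242. The log2 fold changes were 0.01 for Wfs1, 0.39 for Spink8 and -0.24 for Lct. Without mice m118 and m244 they were -0.20 for Wfs1 (SE, 0.14), 0.13 for Spink8 (SE, 0.17) and -0.36 for Lct (SE, 0.27), so that Wfs1 changed sign.

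**Figure D1:**
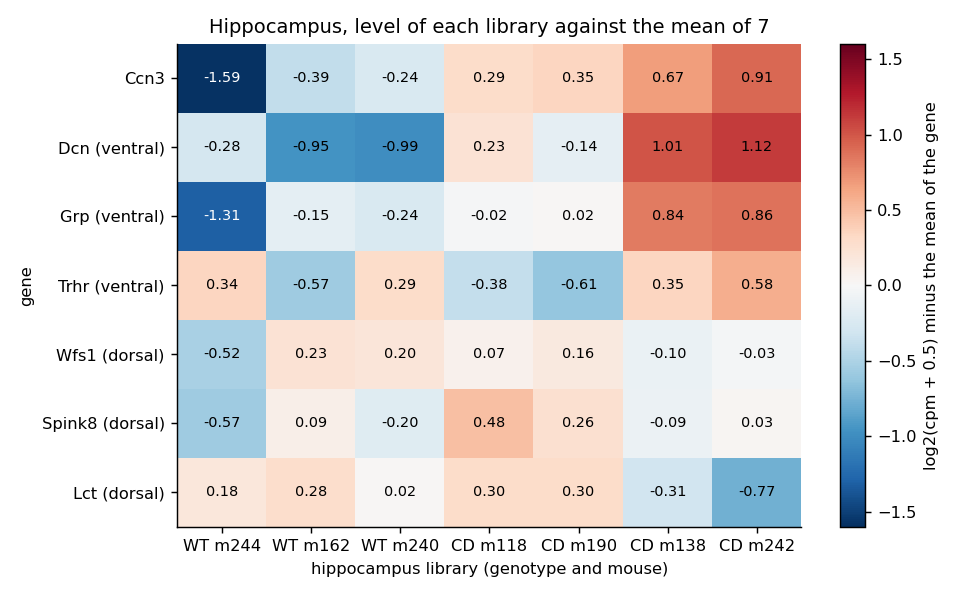
Level of each member (vertical) in each of the 7 hippocampus libraries (horizontal, genotype and mouse number, ordered for reading) as log2(cpm + 0.5) minus the mean of the gene over the 7 libraries. Mouse m244 is lowest for Ccn3 (-1.59) and Grp (-1.31), and mice m138 and m242 are highest for Ccn3, Dcn, Grp and Trhr and lowest for Lct.

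Read by library, CD mice m138 and m242 stood out across the list. They had the highest levels of Ccn3, Dcn, Grp and Trhr among the 7 hippocampi and the lowest levels of Lct. The mean log2 level of the 3 ventral markers minus that of the 3 dorsal markers was 0.065 in mouse m138 and 0.28 in mouse m242. It was between -1.59 and -0.94 in the 3 WT mice, and -1.17 and -1.31 in CD mice m118 and m190. The last 2 CD mice therefore lay inside the WT range of this difference while their Ccn3 was above the WT range. Without mice m118 and m244 the WT range was -1.59 to -1.15, and mouse m190 still lay inside it. In those mice, Ccn3 was at 18.9 and 19.7 cpm, against 12.9 cpm in the highest WT mouse, and Dcn was at 24.9 and 19.2 cpm, against 17.4 cpm. Grp, at 28.4 and 29.2 cpm, was nearer to the highest WT mouse (25.8 cpm), and Trhr, at 3.02 and 2.49 cpm, was below WT mice m240 and m244. Among the 4 CD mice the highest library exceeded the lowest 1.56-fold for Ccn3, 2.43-fold for Dcn, 1.85-fold for Grp and 2.55-fold for Trhr, and 2.15-fold for Lct. Wfs1, at 31.0 to 37.3 cpm, and Spink8, at 22.7 to 34.0 cpm, spread less. Ccn3 thus spread less among CD mice than each of the 3 ventral markers. Among the 3 WT mice it spread more than each of the 6 markers, 2.70-fold, through m244. WT mouse m244 broke the pattern, having the highest ventral minus dorsal difference of the WT mice (-0.94) and the lowest Ccn3 of all. No correlation of Ccn3 with the markers was computed over the 7 hippocampi pooled, because its values separate by genotype. The part of the marker balance in the Ccn3 difference was not tested.

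**Figure D2:**
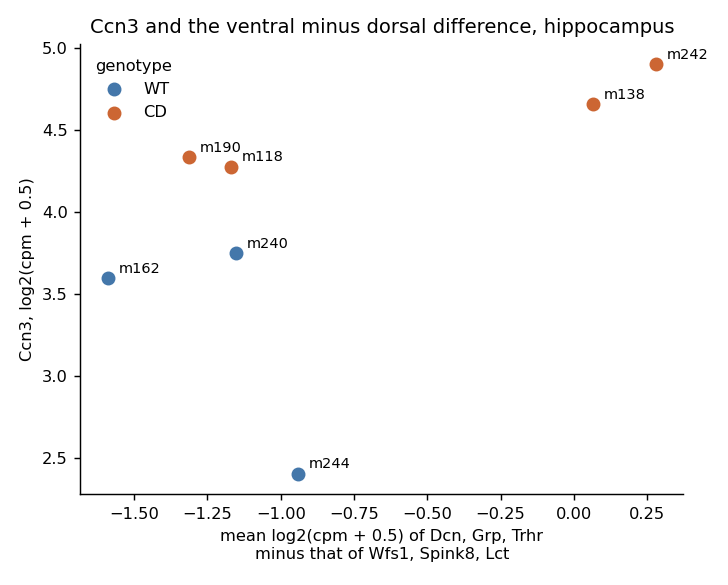
Ccn3 in each hippocampus library (log2(cpm + 0.5), vertical) against the mean log2 level of Dcn, Grp and Trhr minus that of Wfs1, Spink8 and Lct (horizontal), with 1 labelled point per mouse. CD mice m118 and m190 (-1.17 and -1.31) share the horizontal range of the WT mice (-1.59 to -0.94) and lie above them, and CD mice m138 and m242 lie to the right at 0.065 and 0.28.

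Whether the 6 markers vary together was asked over the 7 hippocampi, in 15 pairs. Ccn3 was left out. These are the libraries behind the choice of the list, so the p values describe them and are no independent support. The 3 ventral pairs had positive Pearson correlations of log2(cpm + 0.5), from 0.16 to 0.68, and so did the 3 dorsal pairs, from 0.16 to 0.69. Ventral with dorsal pairs ranged from -0.78 to 0.49, and 3 of 9 were positive. Of the 15 pairs, 1 had an exact permutation p below 0.05 and 0 did after Benjamini-Hochberg adjustment over the pairs. It joined the granule cell markers Trhr and Lct, which had r = -0.78 (two-sided exact permutation p = 0.0242, adjusted p = 0.301) and Spearman's rho = -0.86 (exact permutation p = 0.0238, adjusted p = 0.179). Without the 2 libraries farthest from the median of Trhr, r was -0.74. Trhr itself was split into 3 libraries at 2.49 to 3.02 cpm and 4 at 5.10 to 6.35 cpm, so this r rests in part on the gap between them. By Spearman's rho, Dcn and Grp were also joined (0.86, exact permutation p = 0.0238, adjusted p = 0.179), but without the 2 libraries farthest from the median of Dcn, mice m138 and m242, r was 0.015. The number of pairs below 0.05 turned on single libraries. It was 0 without mouse m118, m162, m190 or m242, 3 without mouse m240 and 4 without mouse m244.

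These values pool WT and CD mice, although Dcn and Grp separate by genotype. With the mean of each genotype subtracted, 5 of the 15 pairs had a permutation p below 0.05 and 0 did after adjustment (smallest adjusted p = 0.128). They were Trhr with Lct (r = -0.85), Dcn with Trhr (0.85), Trhr with Spink8 (-0.81), Wfs1 with Spink8 (0.80) and Dcn with Lct (-0.79). Dcn with Trhr had been at 0.46 in the pooled values. Dcn with Spink8 went from 0.17 to -0.77, and Dcn with Grp from 0.68 to 0.23. Of the ventral with dorsal pairs, 2 of 9 were then positive. The subtraction ties the values within each genotype, so these permutation p are only approximate and can be too small.

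Across regions, Ccn3 was a gene of hippocampus and cortex more than of cerebellum. The order of the group means was CD hippocampus (23.2 cpm), CD cortex (15.5 ± 1.99), WT cortex (14.4 ± 1.88), WT hippocampus (9.77), WT cerebellum (3.50 ± 1.09; n = 4) and CD cerebellum (2.69 ± 1.59; n = 3), each ± SD, with n = 4 in the cortex groups. The ranges of CD hippocampus and CD cortex did not overlap, and neither did those of WT hippocampus and WT cerebellum (lowest 4.79 cpm against highest 4.53 cpm). The other neighbours in this order overlapped. Over both genotypes Ccn3 was higher in hippocampus than in cerebellum by a log2 fold change of 2.33 (SE, 0.23; FDR = 3.07e-09) and higher in cortex than in cerebellum by 2.31 (SE, 0.23; FDR = 2.46e-09). The hippocampal value includes the CD hippocampi of the contrast that chose Ccn3. In WT libraries alone hippocampus was higher than cerebellum by 1.49 (SE, 0.32; FDR = 0.000973), still past the thresholds.

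Between hippocampus and cortex, Ccn3 was not called over both genotypes (log2 fold change, 0.02; SE, 0.19; FDR = 0.957), and this mean joins opposite directions. In WT libraries alone the log2 fold change of hippocampus over cortex was -0.56 (SE, 0.29; FDR = 0.210), which was not called either. Within mice, the ratio of hippocampus to cortex was 0.72, 0.96 and 0.39 in WT mice m162, m240 and m244 and 1.04, 1.71, 1.45 and 1.88 in CD mice m118, m138, m190 and m242. It was below 1 in 3 of 3 WT mice and above 1 in 4 of 4 CD mice. This is given as a description, since it contains the hippocampal difference that chose Ccn3. The cortex values behind it ran from 12.3 to 16.0 cpm in WT and from 13.6 to 18.2 cpm in CD.

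**Figure D3:**
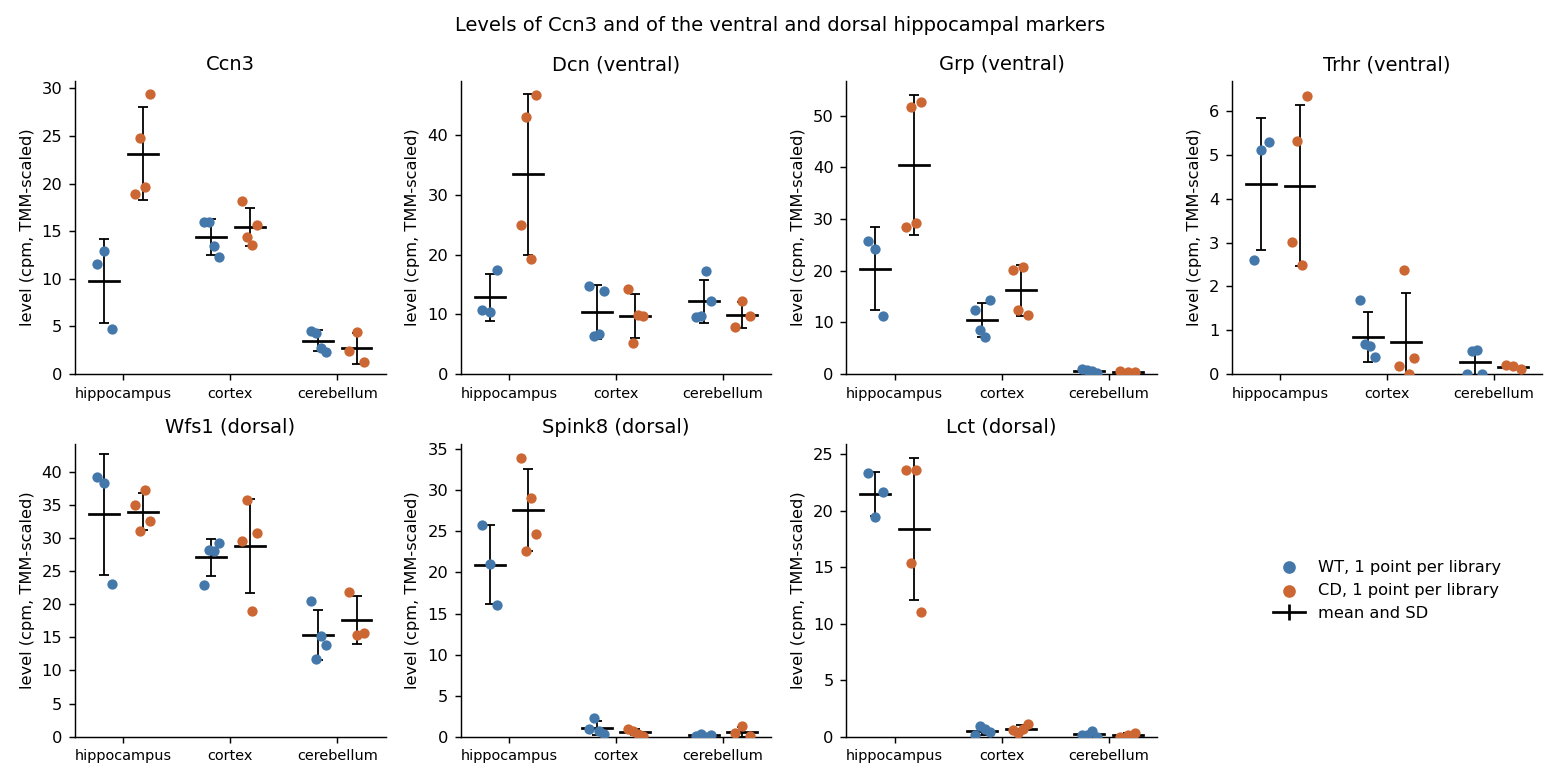
Levels of the 7 members (cpm scaled by TMM, vertical) in hippocampus, cortex and cerebellum (horizontal), with 1 point per library, WT in blue and CD in orange, and black bars for the mean and SD of each group; bars that would reach below 0 are cut at 0. Spink8 and Lct stay below 2.3 cpm outside hippocampus, whereas Wfs1 and Dcn are present in all 3 regions.

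The markers ranged from hippocampal to widespread. Between hippocampus and cortex, 5 of 7 members were called, all higher in hippocampus, against 8.41% of the 11137 genes tested (4.03% higher in hippocampus). Spink8 was at 24.7 cpm in hippocampus and 0.80 cpm in cortex on average, a log2 fold change of 4.96 (SE, 0.28; FDR = 2.88e-13). Lct was at 19.7 and 0.60 cpm, a log2 fold change of 5.02 (SE, 0.28; FDR = 4.33e-13). No hippocampus library overlapped with a cortex library for these dorsal markers. Trhr was higher by 2.32 (SE, 0.45; FDR = 0.000179) and Grp by 1.17 (SE, 0.20; FDR = 4.50e-05). Cortex libraries held 1 to 10 counts of Spink8, 1 to 9 of Lct and 0 to 16 of Trhr, so the sizes of their differences rest on few counts. Dcn was higher by 1.05 (SE, 0.23; FDR = 0.000858), just past the 2-fold threshold, and Wfs1 by 0.28 (SE, 0.14; FDR = 0.122), which was not called.

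The Dcn and Grp calls drew on the CD hippocampi. In WT libraries alone Dcn was higher in hippocampus by 0.30 (SE, 0.31; FDR = 0.568) and Grp by 0.98 (SE, 0.30; FDR = 0.0291), and neither was called. Trhr did not pass the filter in WT libraries alone, so its call has no counterpart there. With the mouse as a replicate block, which uses that regions came from the same animals, Dcn was no longer past the fold threshold (0.96; FDR = 0.00523), and the other calls of this comparison stood. The Dcn call was also lost without mouse m138 (0.87), m164 (0.96), m242 (0.95) or m244 (0.97), and without the hippocampi of mice m118 and m244 together (0.98), each time by the fold threshold alone. Within mice, Dcn had a ratio of hippocampus to cortex of 8.27 in CD mouse m138 and 4.82 in CD mouse m242, against 0.73 to 1.94 in the other 5 mice. CD mouse m138 had the lowest Dcn of all cortex libraries, 5.21 cpm.

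Between hippocampus and cerebellum, 6 of 7 members were called, all higher in hippocampus, against 22.8% of genes (13% higher in hippocampus). The log2 fold changes were 6.41 for Lct (SE, 0.34), 6.19 for Spink8 (SE, 0.33), 5.65 for Grp (SE, 0.32), 4.29 for Trhr (SE, 0.59), 2.33 for Ccn3 and 1.04 for Wfs1 (SE, 0.15; FDR = 1.14e-06). Lct and Trhr had 0 to 3 counts in every cerebellum library, Spink8 had 0 to 7 and Grp had 1 to 6. The sizes of these 4 differences are therefore set by few counts. Dcn was the exception, at 0.92 (SE, 0.24; FDR = 0.00189), below the fold threshold. In WT libraries alone Dcn was at 0.08 (SE, 0.30; FDR = 0.848). Dcn passed the fold threshold without mouse m190 or m240 (1.10 and 1.09), and Wfs1 fell below it without mouse m164, m190 or m240 (0.99, 0.98 and 0.98).

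Between cortex and cerebellum, 2 of 7 members were called, Ccn3 and Grp, both higher in cortex, against 22.6% of genes (12.9% higher in cortex). Grp had a log2 fold change of 4.49 (SE, 0.34; FDR = 1.85e-11), with 13.4 cpm in cortex and 0.57 cpm in cerebellum. Wfs1 was at 27.9 and 16.3 cpm, a log2 fold change of 0.76 (SE, 0.15; FDR = 6.88e-05) that stayed below the fold threshold. Dcn was at 10.1 cpm in cortex and 11.2 cpm in cerebellum (FDR = 0.650). Trhr, Spink8 and Lct were below 1 cpm on average in both regions, and their FDR was 0.0236, 0.0490 and 0.0378. Trhr was called in this comparison with no filter on low counts (FDR = 0.00252) and by DESeq2 (FDR = 0.00839), and Spink8 in WT libraries alone (FDR = 0.00593).

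**Figure D4:**
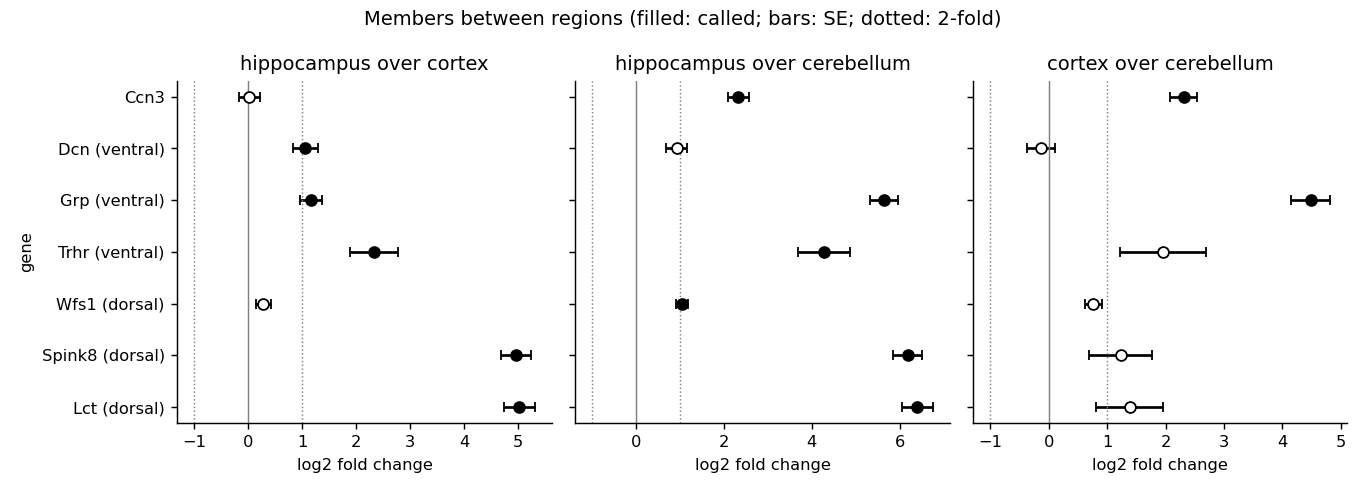
Log2 fold changes of the 7 members between regions (horizontal; positive is higher in the region named first) with bars for the SE of the edgeR fit, filled points for members past both thresholds and dotted lines at 2-fold. Ccn3 lies at 0.02 between hippocampus and cortex and at 2.33 and 2.31 over cerebellum, and Lct and Spink8 lie near 5 or above over both other regions in the hippocampus panels.

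The genotype comparison was tested in the regions that did not choose the list. In cortex 0 of the 4 members that passed the filter were called, as were 0 of all 9927 genes (0%; 328 at an unadjusted p below 0.05, and the members with DESeq2 0 as well). Ccn3 was at 16.0, 16.0, 13.4 and 12.3 cpm in WT mice m162, m164, m240 and m244 and at 18.2, 14.4, 13.6 and 15.7 cpm in CD mice m118, m138, m190 and m242. The groups overlapped, with a log2 fold change of 0.08 (SE, 0.16; FDR = 0.9998). Dcn was at 10.4 ± 4.49 cpm (SD, n = 4) in WT and 9.77 ± 3.68 cpm (SD, n = 4) in CD, a log2 fold change of -0.10 (SE, 0.32; FDR = 0.9998), and Wfs1 was at 27.1 ± 2.83 and 28.8 ± 7.04 cpm, a log2 fold change of 0.09 (SE, 0.18; FDR = 0.9998).

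Grp had the largest fold change of the 4 members fitted in cortex. It was at 12.3, 8.46, 7.15 and 14.3 cpm in WT mice m162, m164, m240 and m244 and at 20.2, 12.4, 20.7 and 11.4 cpm in CD mice m118, m138, m190 and m242. The groups overlapped, with a log2 fold change of 0.62 (SE, 0.26; unadjusted p = 0.0292, FDR = 0.9998 by edgeR). The CD mice with the higher Grp in cortex, m118 and m190, were those with the lower Grp in hippocampus. Trhr, Spink8 and Lct did not pass the filter in cortex, and exact permutation tests on log2(cpm + 0.5) gave p = 0.514, 0.343 and 0.543, where the smallest possible p was 0.0286.

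In cerebellum 0 of the 2 members that passed the filter, Dcn and Wfs1, were called, as were 0 of all 10141 genes (0%; 461 at an unadjusted p below 0.05, and the members with DESeq2 0 as well). Dcn was at 12.2 ± 3.57 cpm (SD, n = 4) in WT and 9.97 ± 2.18 cpm (SD, n = 3) in CD, and Wfs1 was at 15.3 ± 3.74 and 17.6 ± 3.63 cpm (FDR = 0.9806 for each by edgeR). Ccn3 did not pass the filter. It was at 4.53, 4.34, 2.77 and 2.36 cpm in WT mice m162, m164, m240 and m244 and at 2.44, 4.40 and 1.24 cpm in CD mice m118, m190 and m242, which overlapped (two-sided exact permutation p = 0.457). Grp, Trhr, Spink8 and Lct were at 0.62 cpm or less on average in both genotypes, with exact permutation p between 0.229 and 0.971.

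The other CCN genes had few counts, apart from Ccn4. Of Ccn1, Ccn2, Ccn4, Ccn5 and Ccn6, only Ccn4 passed the filter, and the others had 20, 20, 7 and 1 counts in all 22 libraries together for Ccn1, Ccn2, Ccn5 and Ccn6. Ccn4 had another regional pattern than Ccn3, with means of 4.15 cpm in hippocampus, 43.3 cpm in cortex and 17.7 cpm in cerebellum. It was called in all 3 region comparisons and in no genotype comparison. In hippocampus it ran from 2.59 to 5.64 cpm in WT and from 2.52 to 5.58 cpm in CD, so it overlapped where Ccn3 did not.

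The genes whose levels followed Ccn3 most closely were ranked by Pearson's r of log2(cpm + 0.5). Over all 22 libraries, which mostly differ by region, they were Chd5 (0.925), a chromatin remodeler of neurons, Tmem130 (0.922), a membrane protein, and Ptprn2 (0.919), a protein of dense-core vesicles. Grp was next, with rank 4 of 11136 genes (0.915), followed at a distance by Wfs1 (rank 978; 0.787). Trhr (0.547), Spink8 (0.539), Lct (0.488) and Dcn (0.346) had ranks 2531, 2562, 2857 and 3681. The 22 libraries include the hippocampi that chose the list, where Ccn3, Grp and Dcn separate by genotype. These ranks are therefore a description only. After the mean of each genotype was subtracted in the 7 hippocampi, the leading genes were Mib2 (0.993), a ubiquitin ligase, Slc6a11 (0.991), a GABA transporter of astrocytes, and Tusc3 (0.983), a protein of the endoplasmic reticulum. Grp had rank 68 of 9963 genes (0.931) and Wfs1 rank 634 (0.744). Spink8 (0.317), Trhr (0.098), Dcn (-0.074) and Lct (-0.465) ranked lower, at 3029, 4383, 5470 and 7950. With 7 libraries, 2 genotype means removed and mouse m244 far from the rest, these values describe the libraries and carry no p.

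Other gene lists were read in the same hippocampi. A second set of genes used for the ventral end, Htr2c, Etv1 and Nr2f2, summed to 216.8, 176.9 and 212.1 cpm in WT mice m162, m240 and m244 and to 274.9, 299.9, 235.3 and 302.6 cpm in CD mice m118, m138, m190 and m242. The groups did not overlap, and most of the sum is Etv1, a transcription factor also expressed in the cerebellum and counted on 1 of several transcripts that share reads. Nr2f2, a transcription factor, was at 52.5 and 60.7 cpm in CD mice m138 and m242, at 61.2 cpm in WT mouse m244 and at 23.2 to 31.0 cpm in the other 4 mice. These 3 mice were also among the 4 with the higher Trhr. CA1 genes summed to 294.2, 304.9 and 158.9 cpm in WT mice m162, m240 and m244 and to 387.3, 311.1, 341.1 and 313.6 cpm in CD mice m118, m138, m190 and m242, which did not overlap, though mouse m240 came within a few percent of mouse m138. Taken singly, Fibcd1, Pou3f1 and Gpr161 overlapped, and Mpped1 parted only narrowly (highest WT 137.2 cpm, lowest CD 137.5 cpm). Mpped1 is not confined to hippocampus, with means of 146.0 cpm there and 161.6 cpm in cortex. Nts, a peptide gene used for the subiculum, was at 1.54 cpm in mouse m244 and at 7.12 to 11.6 cpm in the others. Fn1, the other gene used for the subiculum, did not follow it. Fn1 was at 8.89 cpm in mouse m244, within 8.89 to 10.1 cpm in WT and 9.31 to 10.6 cpm in CD. The part of CA1 and subiculum content in the Ccn3 values was not tested.

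Markers of other cells were read beside the members. Genes of fibroblasts and leptomeningeal cells, which also express Dcn, summed to 80.7 to 232.8 cpm in WT and 67.4 to 139.1 cpm in CD hippocampi, highest in WT mouse m244. CD mice m138 and m242, with the highest Dcn, had 122.4 and 71.4 cpm. The largest part of these sums was a single gene, Igf2, at 154.7 cpm in m244, 75.7 cpm in m138 and 38.5 cpm in m242. Of the 8 genes of this list, Col1a1 and Col1a2 among them, 0 were called between hippocampus and cortex, against 8.41% of all genes. Nothing is read from so small a count. Dcn was called there over both genotypes but not in WT libraries alone. Lum, another proteoglycan of fibroblasts, was higher in hippocampus (FDR = 0.0121) without passing the thresholds. The other genes of this list had fold changes in the opposite direction, toward cortex. The median log2 fold change of the 8 genes was 0.652 toward cortex. The part of these cells in the Dcn values was not tested. Mural cell genes summed to 163.0 to 221.3 cpm in WT and 159.8 to 198.2 cpm in CD. Dentate granule genes summed to 1197 to 1581 cpm in WT and 1037 to 1407 cpm in CD, with the lowest sums in CD mice m138 and m242 (1116 and 1037 cpm), which also had the lowest Lct. Mossy cell genes (57.6 to 120.1 and 50.6 to 101.6 cpm), CA2 genes (66.9 to 79.1 and 59.4 to 73.2 cpm), CA3 genes (21.3 to 32.6 and 15.9 to 25.1 cpm), striatal genes (39.1 to 82.2 and 50.1 to 59.4 cpm) and thalamic genes (23.8 to 32.8 and 22.9 to 28.4 cpm) overlapped between WT and CD. Cortical neuron genes (111.8 to 147.3 and 102.1 to 116.0 cpm) and cerebellar neuron genes (32.8 to 44.8 and 29.2 to 45.6 cpm) did too.

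**Figure D5:**
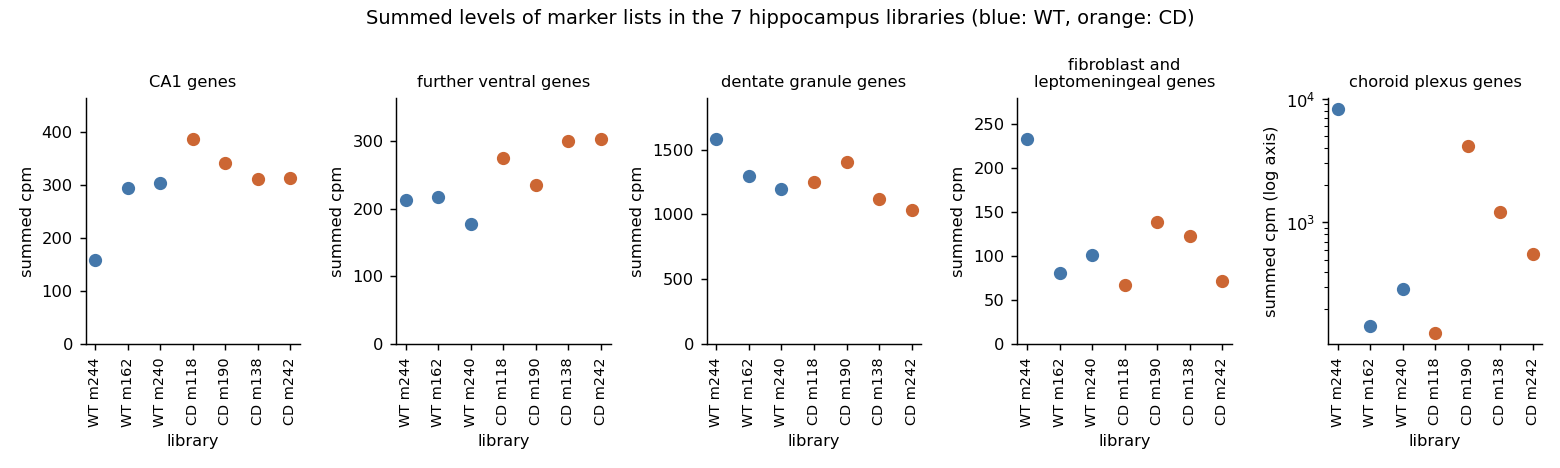
Summed level of 5 marker lists (cpm scaled by TMM, vertical; the choroid plexus panel has a log axis) in the 7 hippocampus libraries (horizontal; WT in blue, CD in orange). Mouse m244 is lowest for CA1 genes (158.9 cpm) and highest for fibroblast and choroid plexus genes (232.8 and 8242 cpm). The sums of CD libraries lie above those of WT libraries for further ventral genes and, narrowly, for CA1 genes (lowest CD 311.1 cpm, highest WT 304.9 cpm).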

How the data were processed

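RNA of hippocampus, cortex and cerebellum was sequenced from 22 libraries. The authors deposited raw counts per RefSeq transcript. Per the methods and labels, STAR was used for alignment to mm10, and the End Sequence Analysis Toolkit made the counts. Tool versions, the use of molecular identifiers and the assignment of reads shared by overlapping transcripts are not given in the sources used here. Transcripts were matched by accession to the RefSeq annotation of GRCm38.p6 (69288 of 85964, with 81.4% of counts), and of the transcripts of a gene the one with most counts in total was used. Genes with 5 cpm in at least 2 libraries were kept, over 22 libraries for regions and within a region for genotypes. After scaling by TMM, edgeR 4.0.16 in R 4.3.3 was fitted (glmQLFit, glmQLFTest), and genes were called at an FDR (Benjamini-Hochberg over all genes) below 0.01 with a fold change above 2 or below 0.5. The fit was tested on simulated data. SE values are the log2 fold change over the square root of F. Regions were compared over 6 group means, as the average of WT and CD. Log2 levels of single genes had 0.5 cpm added. Exact permutation tests were run in scipy 1.17.1, two-sided.

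Genotype, region and mouse came from the labels. Libraries with 1 mouse number are from the same animal, so the mouse was added as a block in an alternative; same-mouse deviations from the group means correlated by 0.086 between hippocampus and cortex, 0.049 between hippocampus and cerebellum and -0.004 between cortex and cerebellum on average. Depth was 2760846 to 8858937 counts, and no interval here covers more than counting error and the spread between mice. Alternatives were DESeq2 1.42.0 and its size factors, no filter, the filter over all libraries, other treatments of transcripts, WT libraries alone, a fit over all libraries, another pseudocount and each mouse left out. Leaving out the hippocampi of mice m118 and m244 together was chosen after seeing the data.

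The members and lists were chosen with earlier results of these data known. Named genes are the members, the CCN family, the leading genes of each list by hippocampal level where a result turned on them, the 3 genes most like Ccn3 over 22 and over 7 libraries, and Tulp4; Htr2c, Pou3f1, Gpr161 and Col1a1 are named as list members.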

Additional observations from a re-analysis of the deposited data

Results flagged for a closer look

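Trhr in the cortex of CD mouse m138 was at 2.38 cpm (16 counts), against 0 to 0.37 cpm in the other 3 CD cortex libraries, a gap above the 95% critical value of Dixon's test. This was 1 of 28 groups of 4 libraries in which a member was examined, and chance alone gives about 1.4. The same mouse had the second highest Trhr in hippocampus (5.32 cpm).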

How the results depend on the processing

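Members called between regions kept to within 1.5 times their number under every alternative except WT libraries alone, where 2 members were called between hippocampus and cortex, against 5 over both genotypes. There Dcn and Grp were fitted and not called, and Trhr did not pass the filter. Without a filter on low counts, 2 members passed the thresholds between hippocampi of CD and WT mice, against 0 with it. This contrast chose the members, and the share of all genes passing without the filter is not given. Nothing is therefore read from this count, and its cause was not tested. With genotype means subtracted, 5 marker pairs had p below 0.05, against 1, although p is only approximate after the subtraction. With each mouse left out, 0 to 4 pairs did. The mouse as a replicate block ended only the Dcn call between hippocampus and cortex (0.96). The Ccn3 difference between hippocampus and cortex reversed in WT libraries alone (-0.557) and ran from -0.139 to 0.145 with each mouse left out. In the same way Dcn ran from -0.33 to 0.053 between cortex and cerebellum, and in cortex CD minus WT ran from -0.001 to 0.135 for Ccn3, -0.329 to 0.168 for Dcn and -0.025 to 0.247 for Wfs1; none of these was called in any of these settings. Of 409 values of single members in the tested comparisons under an alternative, 382 kept direction and side of the thresholds, 11 reversed, 11 lost and 5 gained the call. Between hippocampi of CD and WT mice, which were not tested, 91 of 97 values kept their sign. The other 6 were 3 for Trhr (0.009; -0.234 to -0.109 without mouse m138, m162 or m242) and 3 for Wfs1 (0.013; -0.205 to -0.036 without mouse m190, m244, or m118 and m244). Precision was limited by depth for Trhr, with 12 to 46 counts in hippocampus, and by the 3 WT and 4 CD mice for all members.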
